A study of Homo sapiens with 9 samples.

Results

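All 6 knockdown libraries of a RAS senescence experiment in BJ cells, human fibroblasts immortalised with hTERT, were taken as one group and set against the 2 senescent libraries. These are 8 of the 9 polyA RNA-seq libraries of the series, chosen by their labels alone. In the knockdown group RASG12V, an oncogenic RAS with the G12V change, was active while 1 of 3 targets was silenced. Hairpins 32-2, 32-3, 32-8 and 32-9, with 1 library each, targeted the long non-coding RNA lncRNA-OIS1. The p53 knockdown and the BRD7 knockdown had 1 library each. The senescent group had active RASG12V with a non-targeting shRNA, number 500 in one library and number 507 in the other. The ninth library, the control, carried non-targeting shRNA 500, with no RASG12V named in its condition label, and is given only for its level. Every library is labelled with 14 days of 4-OHT, the control included, which the design text calls untreated. Both senescent libraries have titles that read as controls, and they were placed by their description and condition labels. A gene was counted as above when each of the 6 knockdown libraries exceeded both senescent libraries, and as below when each lay under both.

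Oncogenic RAS drives normal fibroblasts into senescence, a lasting arrest in which p53 induces the CDK inhibitor p21 (CDKN1A) and the RB family shuts down E2F targets. Repression of the cell-cycle genes is carried out at their promoters, where E2F sites mark many genes of DNA synthesis and the CHR element, often with CCAAT boxes, marks many genes of mitosis. Cells that lose p53 escape this arrest. BRD7 is a bromodomain protein of SWI/SNF chromatin remodelling complexes that acts as a cofactor of p53.

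Values were read counts that the authors normalised to one common distribution. Every library summed to 14916466.5 with a median gene at 340.1, and 1375 of 13745 genes sat at the lowest value, a floor of 20. Sequencing depth is unknown, and counting error cannot be given. BRD7 stood at 94.6 in its knockdown library, at 628.7 to 695.3 in the other 5 knockdown libraries, at 628.7 and 536.6 in the senescent libraries and at 605.1 in the control. BRD7 was thus lowest in the library labelled with its knockdown. The level of lncRNA-OIS1 itself was not analysed here. Of 14 mesenchymal and fibroblast markers all were in the table, and their summed level was 199403.0 to 234480.4 in knockdown, 170685.6 to 185587.1 in senescent and 390001.4 in control libraries. Endothelial markers were represented by TIE1 alone of 6, at 44.9 to 266.9 in knockdown, 37.4 to 40.7 in senescent and 22.2 in control libraries. For 3 of 7 leukocyte markers the sums were 67.2 to 163.0, 155.2 to 183.9 and 216.5, and for 3 of 7 epithelial markers 801.4 to 2105.3, 1617.5 to 1892.8 and 3686.7, in the same order. In these bulk libraries fewer cells of a type and less RNA per cell cannot be told apart.

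Of 12481 genes that reached 40 in at least 1 of the 9 libraries, 1830 were above in all 6 knockdown libraries (14.7% of those tested) and 2318 were below in all 6 (18.6%). The remaining 8333 genes were on neither side. Most separations were narrow. Between the nearest knockdown and senescent libraries the median gap was 0.19 on the log2 scale for genes above and 0.15 for genes below, and a gap of at least 0.5 was reached by 321 and 170 genes. At least 1 log2 unit of gap was reached by 39 genes above and 20 below. By limma on log2 values, at a p of under 0.05 after Benjamini-Hochberg adjustment across the 12481 genes, 378 genes (3.03%) rose in the knockdown libraries and 344 (2.76%) fell. Each of these 722 genes was also on one side in 6 of 6 libraries. At an unadjusted p under 0.05 there were 3317 genes.

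The calls rest on few libraries. Without hairpin 32-3, 4 genes were called higher and 3 lower. Without the BRD7 knockdown the counts were 19 and 11, without the first senescent library 1 and 2, and without the second 0 and 0, where 1372 genes still had an unadjusted p under 0.05. Hairpin 32-9, the library that most often kept a gene from being one-sided, acted the other way, and without it 503 genes were called higher and 595 lower. Of the 57 called genes among the 111 that the rules for naming genes single out, 6, 13, 2 and 0 kept their call without hairpin 32-3, the BRD7 knockdown, the first and the second senescent library, and none changed sign under any alternative. Their limma adjusted p then ran from 0.0363 to 0.097 without hairpin 32-3, from 0.0388 to 0.0834 without the BRD7 knockdown, from 0.0425 to 0.301 without the first senescent library and from 0.243 to 0.41 without the second. The labels do not say whether libraries came from separate cultures, so each p reflects only how these libraries vary, a spread that mixes targets, hairpins and culture and may be technical.

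**Figure D1:**
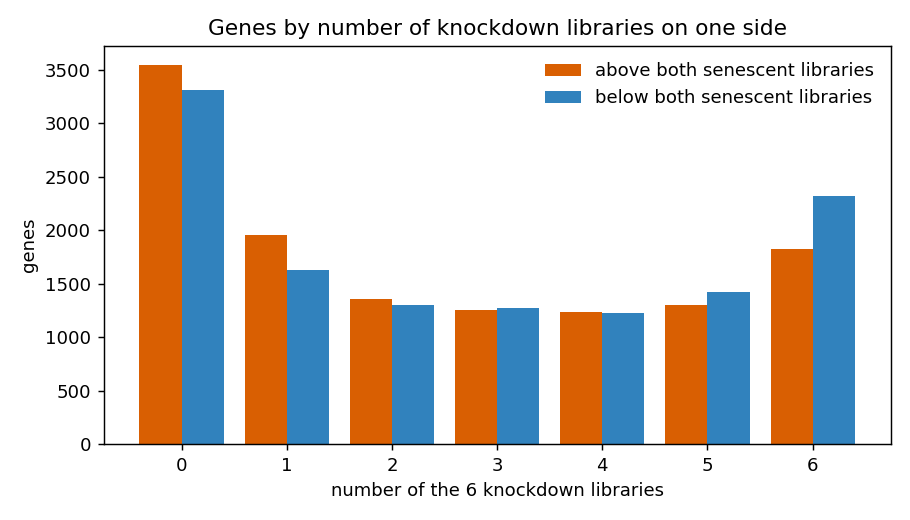
Number of genes (vertical axis) by how many of the 6 knockdown libraries lay above both senescent libraries (orange) or below both (blue). All 6 libraries were on one side in 1830 genes above and 2318 below, against 1298 and 1427 genes with exactly 5 libraries.

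Which library stood nearest to the senescent pair differed between genes. In 412 further genes above and 449 below, 5 libraries were on one side and hairpin 32-9 was not. The same was true of hairpin 32-8 in 289 and 333 genes, of hairpin 32-2 in 256 and 255, of the BRD7 knockdown in 142 and 165, of the p53 knockdown in 111 and 160, and of hairpin 32-3 in 88 and 65. Among genes with 6 of 6 above, the p53 knockdown lay farthest from the senescent libraries in 911 of 1830, and among those below in 806 of 2318. The median difference from the senescent mean in the genes above was 0.73 on the log2 scale with p53 knockdown, 0.60 with hairpin 32-9, 0.55 with 32-3, 0.49 with BRD7 knockdown, 0.45 with 32-2 and 0.39 with 32-8. These genes were selected for being above, so the values only rank the libraries. The 4 hairpins share a target, so the 6 libraries stand for 3 targets.

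Of the 20 gene lists described, mitosis had the largest share above among lists of at least 2 tested genes. Of 55 mitosis and spindle genes tested, 53 were above in all 6 knockdown libraries (96.4%, against 14.7% of all genes tested) and none below. Limma called 30 higher, and the median log2 change was 1.5, against -0.02 over all genes tested. The other two, AURKA and BUB3, were above in 5 of 6 libraries, with hairpin 32-2 inside the senescent range for both. MKI67 and FOXM1 are not among the 55 and are given beside them. MKI67, the proliferation marker Ki-67, had 2574.2, 5038.65 and 6931.1 as lowest, median and highest value over the knockdown libraries, against 1231.3 and 972.4 in the senescent libraries and 3913.6 in the control. Its lowest knockdown value, in hairpin 32-2, was still above the senescent values by 1.06 on the log2 scale, and MKI67 rose by 2.02 (SE 0.38, limma adjusted p = 0.0367). FOXM1, a transcription factor of the late cell cycle, rose by 1.89 (SE 0.31, limma adjusted p = 0.0328), and its values were 806.6 to 1830.3 in knockdown libraries against 369.8 and 267.2 in senescent libraries and 942.8 in the control. None of the 30 calls, nor that of MKI67 or FOXM1, held without hairpin 32-3, the BRD7 knockdown or either senescent library, while the list's median log2 change stayed between 1.29 and 1.97 over all alternatives.

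The promoters of the 3 members of the mitosis list with the widest gap are shown because they carry the elements through which this gene group is known to be repressed in arrested cells. Each sequence is the RefSeq promoter of GRCh38.p14, from 250 bases before to 50 bases after the gene's start, on the gene's strand. They lie with CKAP2L at chr2:112764560-112764859 (minus strand), CENPA at chr2:26785806-26786105 (plus strand) and KIF4A at chrX:70289854-70290153 (plus strand). Capitals mark every match on either strand to the CHR element (TTTGAA, or its variant TTCGAA), the CCAAT box (CCAAT) and an E2F core (GGCGGGA).
CKAP2L: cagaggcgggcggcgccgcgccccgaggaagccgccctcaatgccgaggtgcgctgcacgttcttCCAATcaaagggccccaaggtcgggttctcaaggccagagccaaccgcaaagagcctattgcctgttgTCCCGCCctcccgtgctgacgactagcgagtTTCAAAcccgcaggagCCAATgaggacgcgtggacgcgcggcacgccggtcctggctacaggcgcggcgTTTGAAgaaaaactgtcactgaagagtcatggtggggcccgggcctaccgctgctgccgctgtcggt
CENPA: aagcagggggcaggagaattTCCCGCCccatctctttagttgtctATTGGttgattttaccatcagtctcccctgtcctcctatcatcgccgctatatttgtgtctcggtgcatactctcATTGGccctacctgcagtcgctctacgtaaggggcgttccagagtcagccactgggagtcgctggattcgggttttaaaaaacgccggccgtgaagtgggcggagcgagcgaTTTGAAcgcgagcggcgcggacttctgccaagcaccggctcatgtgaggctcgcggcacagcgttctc
KIF4A: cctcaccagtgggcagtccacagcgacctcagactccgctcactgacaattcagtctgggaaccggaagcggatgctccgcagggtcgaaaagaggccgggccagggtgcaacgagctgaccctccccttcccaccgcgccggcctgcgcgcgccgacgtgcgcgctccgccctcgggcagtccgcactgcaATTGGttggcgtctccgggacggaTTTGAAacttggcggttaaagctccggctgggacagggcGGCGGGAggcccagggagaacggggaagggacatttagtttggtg
A CHR element on the gene's strand began 17, 18 and 34 bases before the start in CKAP2L, CENPA and KIF4A, and CKAP2L held another on the opposite strand 86 bases before it. CKAP2L, a mitotic spindle protein, had 1283.7, 1715.25 and 2704.6 as lowest, median and highest value in knockdown libraries, against 562.3 and 467.6 in senescent and 715.1 in control libraries. CENPA, the histone variant that marks centromeres, had 135.1, 196.05 and 325.3 in knockdown, against 66.6 and 34.4 in senescent and 113.9 in control libraries. KIF4A, a chromosome-bound kinesin, had 521.3, 803.0 and 1120.6 in knockdown, against 257.8 and 201.7 in senescent and 489.6 in control libraries. The p53 knockdown was the highest library for all 3 genes, and no knockdown library reached down to a senescent one. In limma the log2 changes were 1.74 (SE 0.26, adjusted p = 0.0286), 2.03 (SE 0.37, adjusted p = 0.0364) and 1.73 (SE 0.27, adjusted p = 0.03).

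RefSeq promoters were matched for 9987 of the 12481 genes tested and for 1506 of the 1830 above (82.3%). For genes below, 79.4% were matched, which is too few for a share to be given. The letters TTTGAA occurred on either strand in 9.78% of all matched promoters, in 14.7% of those of genes above and in 27.5% of those with a gap of at least 0.5. In the mitosis list 31 of 46 promoters (67.4%) held them, and in the replication list 1 of 42 (2.38%). The CCAAT box, in 36.9% of all promoters, was in 71.7% of the mitosis list, 54.8% of the replication list and 51.9% of genes above with a gap of at least 0.5. The E2F core, in 25.6% of all promoters, was in 28.3%, 52.4% and 38.8% of these sets. A CHR element of either spelling together with a CCAAT box stood in 58.7% of the mitosis list, 4.76% of the replication list, 21.3% of the genes with a gap of at least 0.5 and 4.82% of all. For AP-1 (TGANTCA) the share was 4.32% of genes above against 4.58% of all. A match is a description of the sequence and not a site shown to be bound.

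**Figure D2:**
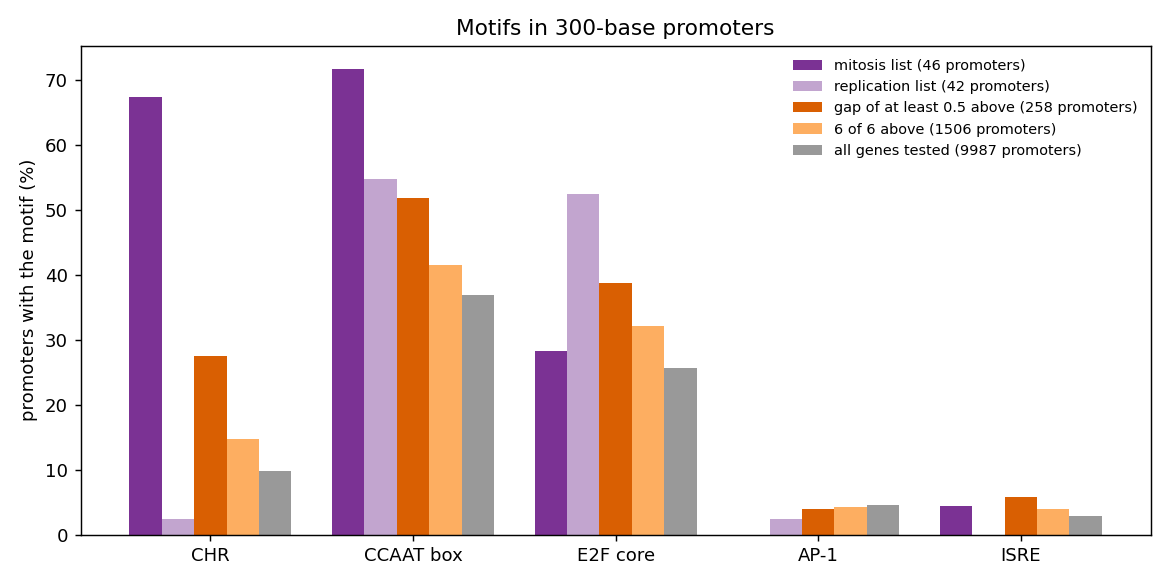
Share of RefSeq promoters (vertical axis, percent) that hold each motif on either strand, for the mitosis list, the replication list, genes above in 6 of 6 libraries with a gap of at least 0.5, all genes above and all genes tested. The CHR bar of the mitosis list, at 67.4%, stands far above the 9.78% of all promoters, while the replication list has the highest E2F core bar at 52.4%.

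DNA replication and E2F target genes followed. Of 48 tested, 43 were above (89.6%, against 14.7% of all genes tested) and 1 below. Limma called 23 higher and 1 lower, and the median log2 change was 1.13. The promoters of the 3 with the widest gap, shown for contrast with those of mitosis, are RefSeq GRCh38.p14 sequences of the same length, with TIMELESS at chr12:56449377-56449676 (minus strand), MCM10 at chr10:13161308-13161607 (plus strand) and RRM2 at chr2:10122489-10122788 (plus strand). Capitals mark the same motifs.
TIMELESS: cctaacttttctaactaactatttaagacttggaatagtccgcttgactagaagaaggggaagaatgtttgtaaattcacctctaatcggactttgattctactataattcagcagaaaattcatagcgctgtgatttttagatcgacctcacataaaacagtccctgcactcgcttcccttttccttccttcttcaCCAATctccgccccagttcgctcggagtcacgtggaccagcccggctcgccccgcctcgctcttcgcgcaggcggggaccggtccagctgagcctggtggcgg
MCM10: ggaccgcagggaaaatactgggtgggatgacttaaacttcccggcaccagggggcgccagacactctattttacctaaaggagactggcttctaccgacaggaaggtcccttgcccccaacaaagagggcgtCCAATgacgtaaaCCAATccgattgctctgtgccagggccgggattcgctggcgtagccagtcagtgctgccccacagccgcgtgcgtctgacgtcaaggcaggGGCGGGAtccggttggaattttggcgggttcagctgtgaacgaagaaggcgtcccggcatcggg
RRM2: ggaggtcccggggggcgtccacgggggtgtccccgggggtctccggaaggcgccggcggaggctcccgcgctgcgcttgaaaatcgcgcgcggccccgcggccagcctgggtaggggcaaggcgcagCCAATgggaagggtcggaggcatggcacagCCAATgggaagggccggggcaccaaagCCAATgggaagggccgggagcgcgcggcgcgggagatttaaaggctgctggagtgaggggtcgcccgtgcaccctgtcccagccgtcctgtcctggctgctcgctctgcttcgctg
None of the 3 held a CHR element in this window, and each held at least 1 CCAAT box, with 3 in RRM2. Of these 3 only MCM10 held an E2F core, which began 14 bases before the start. The mitosis promoters of CKAP2L, CENPA and KIF4A each held an E2F core, so these examples do not follow the E2F shares of the 2 lists. TIMELESS, a protein of the replication fork, had 736.9, 879.9 and 1151.9 as lowest, median and highest value in knockdown libraries, against 381.6 and 319.8 in senescent and 834.6 in control libraries. MCM10, which helps load the replication machinery, had 231.1, 420.65 and 553.1 in knockdown, against 120.4 and 95.8 in senescent and 272.1 in control libraries. RRM2, a subunit of ribonucleotide reductase, had 1781.3, 2540.65 and 3108.0 in knockdown, against 938.0 and 715.9 in senescent and 2377.4 in control libraries. The nearest knockdown and senescent libraries were 0.95, 0.94 and 0.93 apart on the log2 scale, in the order TIMELESS, MCM10 and RRM2. TIMELESS rose by 1.35 on the log2 scale (SE 0.17, limma adjusted p = 0.0232), MCM10 by 1.83 (SE 0.34, limma adjusted p = 0.0367) and RRM2 by 1.55 (SE 0.23, limma adjusted p = 0.0286). E2F1 itself was above in all 6, at 189.2 to 441.0 in knockdown libraries against 133.1 and 132.6 in senescent libraries and 382.4 in the control. It missed the threshold (log2 change 1.16, limma adjusted p = 0.0592), and passed without hairpin 32-2 (0.0376) or with a minimum mean of 80 (0.0461). CCNE1, the cyclin that opens S phase, lay on the other side from its list, at 75.6 to 115.7 in knockdown, 173.6 and 164.7 in senescent and 52.4 in control libraries. CCNE1 fell by 0.78 (SE 0.18, limma adjusted p = 0.0479), a call that was lost with median-of-ratios scaling (limma adjusted p = 0.0506) and without any one library other than hairpin 32-9 (0.0578 to 0.399). MCM3, E2F2, E2F8 and RPA2 were on neither side. As for mitosis, none of the calls held without hairpin 32-3, the BRD7 knockdown or either senescent library.

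Homologous recombination and Fanconi genes, which mend DNA breaks and crosslinks, had 20 of 23 tested members above (87.0%, against 14.7% of all genes tested) and none below. Limma called 9 higher, and the median log2 change was 1.03. FANCD2, the protein that is ubiquitylated at crosslinks, had 293.4, 389.75 and 524.7 as lowest, median and highest value in knockdown libraries, against 122.9 and 84.9 in senescent and 326.6 in control libraries. BLM, a helicase that resolves recombination intermediates, had 178.9, 238.15 and 393.7 in knockdown, against 75.7 and 63.1 in senescent and 141.9 in control libraries. EXO1, a nuclease that resects DNA ends, had 224.7, 305.15 and 416.3 in knockdown, against 115.2 and 85.9 in senescent and 238.2 in control libraries. Hairpin 32-2 was the lowest and the p53 knockdown the highest knockdown library for all 3. FANCD2 rose by 1.92 (SE 0.27, limma adjusted p = 0.0264), BLM by 1.80 (SE 0.29, limma adjusted p = 0.0328) and EXO1 by 1.57 (SE 0.25, limma adjusted p = 0.0311). RAD54B and BRIP1 were above in 5 of 6, PALB2 in 1 of 6. No call of this list held without hairpin 32-3, the BRD7 knockdown or either senescent library.

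**Figure D3:**
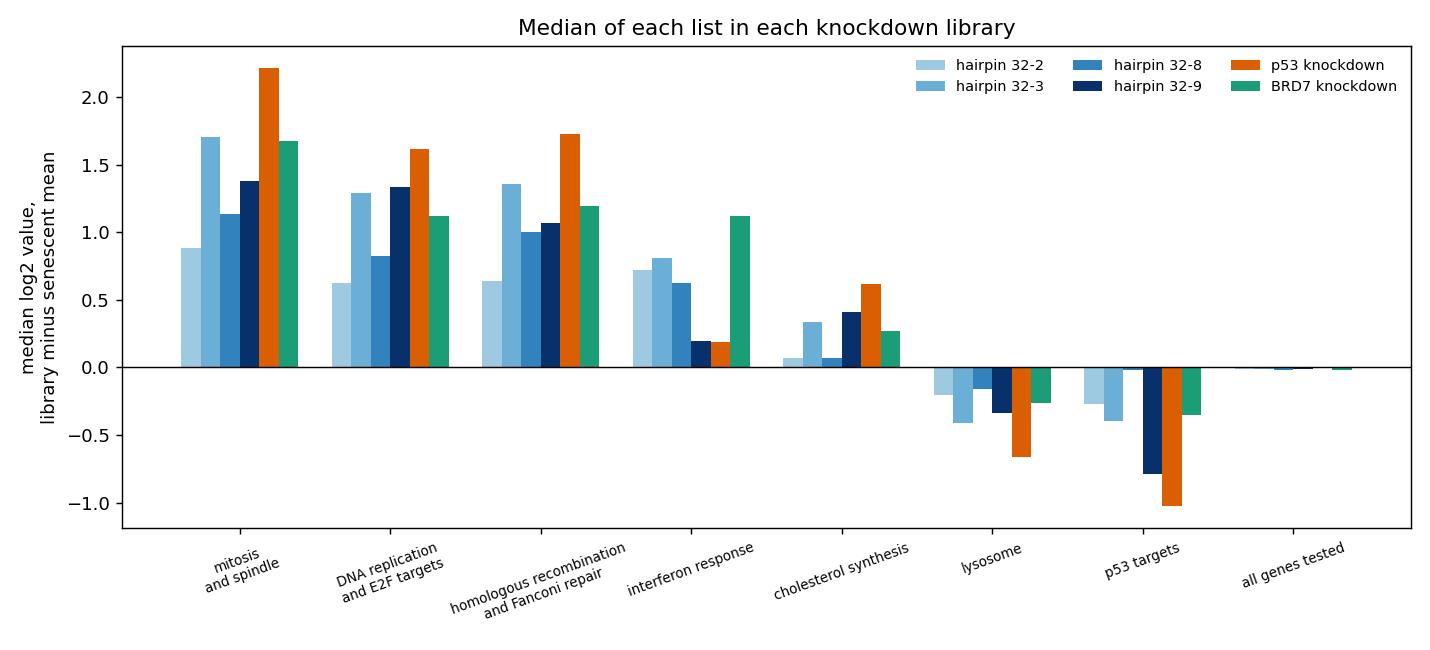
Median over each gene list (horizontal axis) of the log2 difference between a knockdown library and the senescent mean (vertical axis), 1 bar per knockdown library. For mitosis the bars run from 0.88 with hairpin 32-2 to 2.22 with p53 knockdown, and for all genes tested they lie near 0.

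Regulators of arrest lay on both sides. Of 34 tested, 12 were above (35.3%, against 14.7% of all genes tested) and 5 below (14.7%, against 18.6%). By limma 6 were called higher and 1 lower, and the median log2 change was 0.27. CDKN2C, the CDK4 and CDK6 inhibitor p18, had the widest gap of the genes above that have a symbol. Its values were 193.3, 273.4, 236.8 and 223.9 with hairpins 32-2, 32-3, 32-8 and 32-9, 281.6 with p53 knockdown and 243.2 with BRD7 knockdown, against 58.7 and 52.0 in the senescent libraries and 760.2 in the control. The 6 values were closely grouped, and the lowest was over 3-fold above the senescent pair. CDKN2C rose by 2.12 (SE 0.16, limma adjusted p = 0.00945), a call that was lost without the first (limma adjusted p = 0.0949) or the second (limma adjusted p = 0.243) senescent library. CDKN1B, the inhibitor p27, also rose, by 0.77 (SE 0.18, limma adjusted p = 0.0467), at 268.8 to 420.3 in knockdown, 218.4 and 209.6 in senescent and 896.8 in control libraries. LMNB1, lamin B1, whose loss is a common mark of senescence, had 347.1, 802.5 and 1015.8 as lowest, median and highest value in knockdown libraries, against 224.3 and 174.9 in senescent and 1083.3 in control libraries. Hairpin 32-8 was the lowest of the 6 for LMNB1, which rose by 1.81 (SE 0.41, limma adjusted p = 0.0466). HMGB1, a chromatin protein released by senescent cells, rose by 1.07 (SE 0.18, limma adjusted p = 0.0339) and RBL1, the RB relative p107, by 1.07 (SE 0.21, limma adjusted p = 0.0371). CCND3, cyclin D3, fell by 0.35 (SE 0.08, limma adjusted p = 0.0482), at 960.1 to 1113.8 in knockdown against 1356.0 and 1322.4 in senescent libraries. Leaving out hairpin 32-2, 32-9 or the p53 knockdown also ended the call of LMNB1 (limma adjusted p = 0.0575, 0.0585 and 0.0618), and leaving out 32-2, 32-8 or the p53 knockdown that of CCND3 (0.0676, 0.0553 and 0.0517) and of CDKN1B (0.0685, 0.0631 and 0.0666). The calls of LMNB1, HMGB1, RBL1, CDKN1B and CCND3 were lost without hairpin 32-3, the BRD7 knockdown or either senescent library.

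CDKN1A, p21, was below in all 6 but spread widely among them. It had 15473.7, 11146.3, 12588.4 and 6989.6 with hairpins 32-2, 32-3, 32-8 and 32-9, 2721.1 with p53 knockdown and 9405.6 with BRD7 knockdown, against 18745.7 and 22372.6 in the senescent libraries and 3578.4 in the control. The log2 change was -1.26 (SE 0.59, limma adjusted p = 0.222). It was -1.64 with the 3 targets weighted equally, the only setting in which CDKN1A was called. That setting dropped the calls of LMNB1, CDKN1B and CCND3. The highest knockdown value of CDKN1A, with hairpin 32-2, was 0.28 under the lower senescent library on the log2 scale. Of 37 p53 targets tested, 12 were below (32.4%, against 18.6% of all genes tested) and none above, and the median log2 change was -0.46. Limma called 1 of the 37 lower, where it called 2.76% of all genes tested lower. The called gene was CCNG1, cyclin G1, at 3309.4, 2880.8, 2375.9 and 3022.1 with the 4 hairpins in order, 2497.3 with p53 knockdown and 3047.3 with BRD7 knockdown, against 4912.2 and 4810.6 in senescent libraries and 2390.0 in the control. Here the p53 knockdown did not stand out from the rest, and hairpin 32-8 was the lowest. CCNG1 fell by 0.78 (SE 0.13, limma adjusted p = 0.0339), a call lost without hairpin 32-3, the BRD7 knockdown or either senescent library. ZMAT3, a p53-induced RNA-binding protein, was below at 791.2 to 4096.8 in knockdown, 5036.2 and 5112.7 in senescent and 1600.3 in control libraries (log2 change -1.09, limma adjusted p = 0.289). C12orf5, the metabolic regulator TIGAR, was below at 281.0 to 673.3 in knockdown, 855.8 and 828.1 in senescent and 181.8 in control libraries (log2 change -0.93, limma adjusted p = 0.0859, and 0.0447 without hairpin 32-8). MDM2, the ligase that degrades p53, was on neither side, since hairpin 32-8 reached 3657.1 against 3126.9 and 3192.3 in senescent libraries. By library the list's median difference was -1.03 with p53 knockdown, -0.79 with hairpin 32-9, -0.39 with 32-3, -0.35 with BRD7 knockdown, -0.27 with 32-2 and -0.02 with 32-8.

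**Figure D4:**
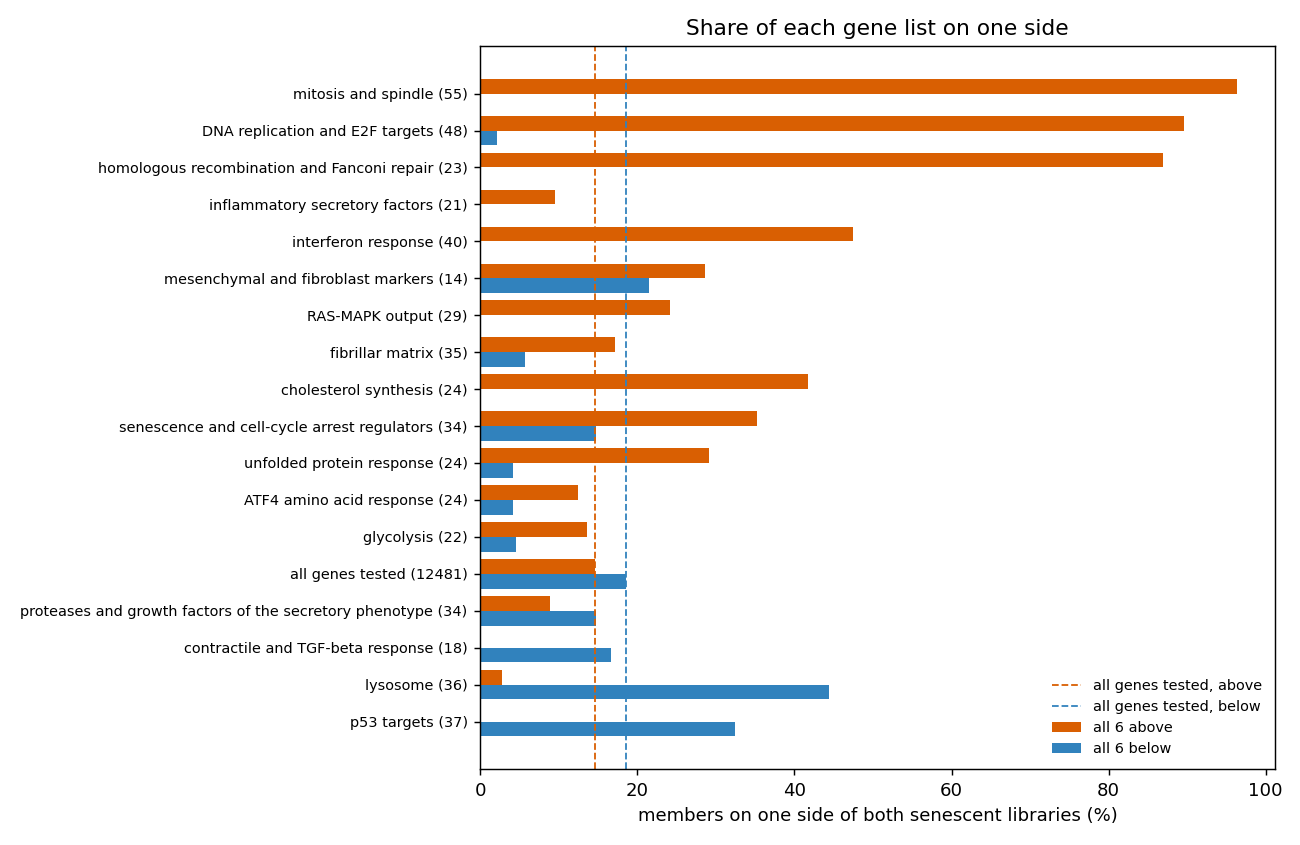
Share of each gene list's tested members (horizontal axis, percent; number tested in parentheses) that were above both senescent libraries in all 6 knockdown libraries (orange) or below both (blue), ordered by median log2 change. Dashed lines give the shares over all genes tested, 14.7% above and 18.6% below, and the 3 cell-cycle and repair lists lie at 86.96% or more above.

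Output of the RAS-MAPK pathway was not uniformly shifted. Of 29 genes tested, 7 were above (24.1%, against 14.7% of all genes tested) and none below. Limma called 3 higher, and the median log2 change was 0.40. IER3, an immediate early gene, had 1283.2, 1779.55 and 2873.6 as lowest, median and highest value in knockdown libraries, against 505.7 and 607.7 in senescent and 415.2 in control libraries, and rose by 1.71 (SE 0.33, limma adjusted p = 0.0369). JUNB, an AP-1 subunit, had 674.3, 794.95 and 1329.6 in knockdown, against 364.4 and 415.2 in senescent and 438.6 in control libraries, and rose by 1.12 (SE 0.24, limma adjusted p = 0.0427). ETS1, a transcription factor that ERK phosphorylates, had 4247.9, 4741.3, 4306.0 and 4177.4 with hairpins 32-2, 32-3, 32-8 and 32-9, 4714.0 with p53 knockdown and 4644.3 with BRD7 knockdown, against 2765.2 and 2773.6 in senescent libraries and 4027.7 in the control. The 6 knockdown values of ETS1 were tightly grouped, and it rose by 0.69 (SE 0.08, limma adjusted p = 0.0185). IER3 and JUNB lost their calls without hairpin 32-3, the BRD7 knockdown or either senescent library, JUNB also without hairpin 32-8 or the p53 knockdown (limma adjusted p = 0.0553 and 0.0545), and ETS1 without hairpin 32-3 or either senescent library. HRAS was on neither side, at 11855.2 to 23342.7 in knockdown, 12051.4 and 11321.3 in senescent and 26556.6 in control libraries (log2 change 0.50, limma adjusted p = 0.224).

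Most secretory genes lay on neither side. Of 21 inflammatory factors tested, 2 were above (9.5%, against 14.7% of all genes tested) and none below. By limma 1 was called higher, and the median log2 change was 0.74. IL8, a neutrophil chemokine, had 17615.8, 4733.9, 12902.8 and 212.0 with hairpins 32-2, 32-3, 32-8 and 32-9, 939.3 with p53 knockdown and 9812.7 with BRD7 knockdown, against 931.6 and 2021.6 in senescent libraries and 20 in the control. IL1B, an upstream cytokine of the secretory phenotype, had 12902.8, 4790.4, 18474.2 and 60.1 with the hairpins in that order, 465.8 with p53 knockdown and 5606.9 with BRD7 knockdown, against 1035.0 and 3344.9 in senescent libraries and 23.2 in the control. For both, 3 hairpins and the BRD7 knockdown were above the senescent pair and hairpin 32-9 was far below it. PTGS2, the cyclooxygenase COX-2, was the exception, at 3660.1, 8028.4 and 13977.8 as lowest, median and highest value in knockdown libraries, against 1938.7 and 1848.6 in senescent and 1975.7 in control libraries. PTGS2 rose by 2.01 (SE 0.43, limma adjusted p = 0.0437), a call that was kept without hairpin 32-2 but lost without any other single library (limma adjusted p = 0.056 to 0.398). TNFAIP6, a hyaluronan-binding protein, was above at 25.0 to 120.9 in knockdown, with both senescent libraries at the floor of 20 and the control at 25.3 (limma adjusted p = 0.221).

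Of 34 proteases and growth factors, 3 were above (8.8%, against 14.7% of all genes tested) and 5 below (14.7%, against 18.6%). By limma 1 was called higher, and the median log2 change was -0.02. FST, follistatin, which binds and blocks activin, had 469.7, 446.0, 524.0 and 994.1 with hairpins 32-2, 32-3, 32-8 and 32-9, 368.7 with p53 knockdown and 229.0 with BRD7 knockdown, against 69.8 and 68.4 in senescent libraries and 81.8 in the control. Every knockdown library was over 3-fold above the senescent pair, and FST rose by 2.73 (SE 0.46, limma adjusted p = 0.0331), a call that was lost without hairpin 32-3 or either senescent library. HGF, hepatocyte growth factor, was above at 390.1 to 2620.9 in knockdown, 224.2 and 282.9 in senescent and 25.2 in control libraries (log2 change 1.60, limma adjusted p = 0.201). PLAT, tissue plasminogen activator, was below at 4952.0 to 25364.9 in knockdown, 40950.0 and 43305.0 in senescent and 1665.7 in control libraries (log2 change -1.62, limma adjusted p = 0.201). MMP1, a collagenase, was on neither side, at 30796.4 to 211606.6 in knockdown against 45321.7 and 50370.2 in senescent libraries and 361.0 in the control. HMGA2, a chromatin protein of senescence-associated foci, was below at 3908.3 to 10883.3 in knockdown, 11452.3 and 12622.1 in senescent and 1645.3 in control libraries (log2 change -0.76, limma adjusted p = 0.23). DPP4, a cell-surface protease, was also on neither side, since only hairpin 32-8, at 2390.0, exceeded the senescent values of 1998.8 and 2050.9.

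Interferon response genes, which are switched on through STAT and IRF factors, had 19 of 40 tested members above (47.5%, against 14.7% of all genes tested) and none below. Limma called 4 higher, and the median log2 change was 0.61. By library the list's median difference was 1.12 with BRD7 knockdown, 0.81 with hairpin 32-3, 0.72 with 32-2, 0.62 with 32-8, 0.20 with 32-9 and 0.19 with p53 knockdown, an order unlike that of the cell-cycle lists. The promoters of the 3 members with the widest gap are shown with matches on either strand to the interferon-stimulated response element (ISRE, searched as GAAA followed after 2 bases of any kind by GAAA) in capitals. They are RefSeq GRCh38.p14 sequences of the same length as above, with OAS3 at chr12:112938224-112938523 (plus strand), IFIH1 at chr2:162318635-162318934 (minus strand) and SAMD9 at chr7:93117930-93118229 (minus strand).
OAS3: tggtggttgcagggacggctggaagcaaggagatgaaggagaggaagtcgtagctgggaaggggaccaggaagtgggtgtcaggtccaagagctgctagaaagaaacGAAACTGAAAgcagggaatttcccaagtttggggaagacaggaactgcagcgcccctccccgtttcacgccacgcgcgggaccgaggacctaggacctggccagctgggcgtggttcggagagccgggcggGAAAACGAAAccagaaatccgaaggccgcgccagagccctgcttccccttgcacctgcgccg
IFIH1: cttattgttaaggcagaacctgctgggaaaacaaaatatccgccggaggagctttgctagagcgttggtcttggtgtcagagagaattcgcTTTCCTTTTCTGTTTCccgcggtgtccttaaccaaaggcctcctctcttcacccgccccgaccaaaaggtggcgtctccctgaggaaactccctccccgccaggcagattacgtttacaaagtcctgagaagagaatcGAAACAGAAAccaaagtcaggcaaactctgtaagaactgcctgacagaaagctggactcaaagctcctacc
SAMD9: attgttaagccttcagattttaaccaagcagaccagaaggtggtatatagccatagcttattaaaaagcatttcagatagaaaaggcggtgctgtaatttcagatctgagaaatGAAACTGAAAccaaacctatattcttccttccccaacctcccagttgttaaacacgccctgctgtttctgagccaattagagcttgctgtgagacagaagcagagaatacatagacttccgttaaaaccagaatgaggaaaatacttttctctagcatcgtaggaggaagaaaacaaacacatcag
Each of the 3 held at least 1 match, as did 2.86% of all matched promoters. Promoters were matched for 30 of the 40 members, which is too few for a share over the list. OAS3, a sensor enzyme for viral RNA, had 730.6, 683.1, 681.0 and 511.9 with hairpins 32-2, 32-3, 32-8 and 32-9, 439.3 with p53 knockdown and 896.2 with BRD7 knockdown, against 200.4 and 161.1 in senescent libraries and 734.0 in the control. IFIH1, the RNA sensor MDA5, had 87.8, 119.55 and 213.0 as lowest, median and highest value in knockdown, against 41.8 and 39.7 in senescent and 129.4 in control libraries. SAMD9, an antiviral factor, had 525.3, 659.85 and 1214.6 in knockdown, against 275.6 and 250.9 in senescent and 661.8 in control libraries. The BRD7 knockdown was the highest library for OAS3 and IFIH1, and hairpin 32-9 for SAMD9. OAS3 rose by 1.83 (SE 0.26, limma adjusted p = 0.0286), IFIH1 by 1.61 (SE 0.33, limma adjusted p = 0.0396) and SAMD9 by 1.41 (SE 0.30, limma adjusted p = 0.0427). None of these calls held without hairpin 32-3, the BRD7 knockdown or either senescent library, while without hairpin 32-9 the list had 8 called genes. IFIH1 also lost its call without hairpin 32-2 or 32-8 (limma adjusted p = 0.0554 and 0.0507), and SAMD9 without the p53 knockdown (0.0521).

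Among genes with a symbol, the widest gaps fell outside the cell cycle for the most part. CDKN2C and FST led the genes above, and FANCD2 and BLM closed the 12 with the widest gap. SPHKAP, an anchoring protein of protein kinase A, had 1071.7, 1485.1, 1292.9 and 920.3 with hairpins 32-2, 32-3, 32-8 and 32-9, 1147.6 with p53 knockdown and 928.0 with BRD7 knockdown, against 305.9 and 234.4 in senescent libraries and 776.1 in the control. OLFML2B, a secreted olfactomedin-domain protein, had 467.6, 549.3, 460.6 and 521.3 with the hairpins in that order, 574.7 with p53 knockdown and 543.8 with BRD7 knockdown, against 172.9 and 135.8 in senescent libraries and 208.4 in the control. DPYSL3, a cytoskeletal adaptor, had 3192.3, 4534.1 and 5251.1 as lowest, median and highest value in knockdown, against 1305.8 and 1078.0 in senescent and 2643.4 in control libraries. All 3 were higher in each knockdown library than in the control as well. SPHKAP rose by 2.07 (SE 0.20, limma adjusted p = 0.0148), OLFML2B by 1.76 (SE 0.13, limma adjusted p = 0.00945) and DPYSL3 by 1.86 (SE 0.19, limma adjusted p = 0.0148). OLFML2B kept its call when any one library was left out except the second senescent one (limma adjusted p = 0.243). SPHKAP lost its call without either senescent library, and DPYSL3 without hairpin 32-3 or either senescent library.

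Lower in level, EVI2A rose by 1.96 (SE 0.24, limma adjusted p = 0.0232), at 84.6 to 134.9 in knockdown libraries against 24.1 and 32.2 in senescent ones, with the control at the floor. EVI2A lies inside an intron of NF1, and no source used here says if strand was counted, so reads of the host gene cannot be told apart from its own. TNFAIP8, a regulator of apoptosis, rose by 1.67 (SE 0.21, limma adjusted p = 0.0232), at 98.8 to 152.3 in knockdown, 41.0 and 37.7 in senescent and 108.2 in control libraries. MMD, a membrane protein, rose by 1.79 (SE 0.26, limma adjusted p = 0.0286), at 90.4 to 167.0 in knockdown, 33.1 and 37.6 in senescent and 107.4 in control libraries. CADPS2, a vesicle-priming factor, was above at 70.6 to 283.9 in knockdown, 24.1 and 23.1 in senescent and 46.7 in control libraries, and missed the threshold (limma adjusted p = 0.0524) except without hairpin 32-9, with median-of-ratios scaling or with a minimum mean of 80. The calls of EVI2A and MMD were lost without hairpin 32-3, the BRD7 knockdown or either senescent library, and that of TNFAIP8 without hairpin 32-3 or either senescent library. In 40 genes above, both senescent libraries were at the floor, so their fitted changes depend on the floor.

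**Figure D5:**
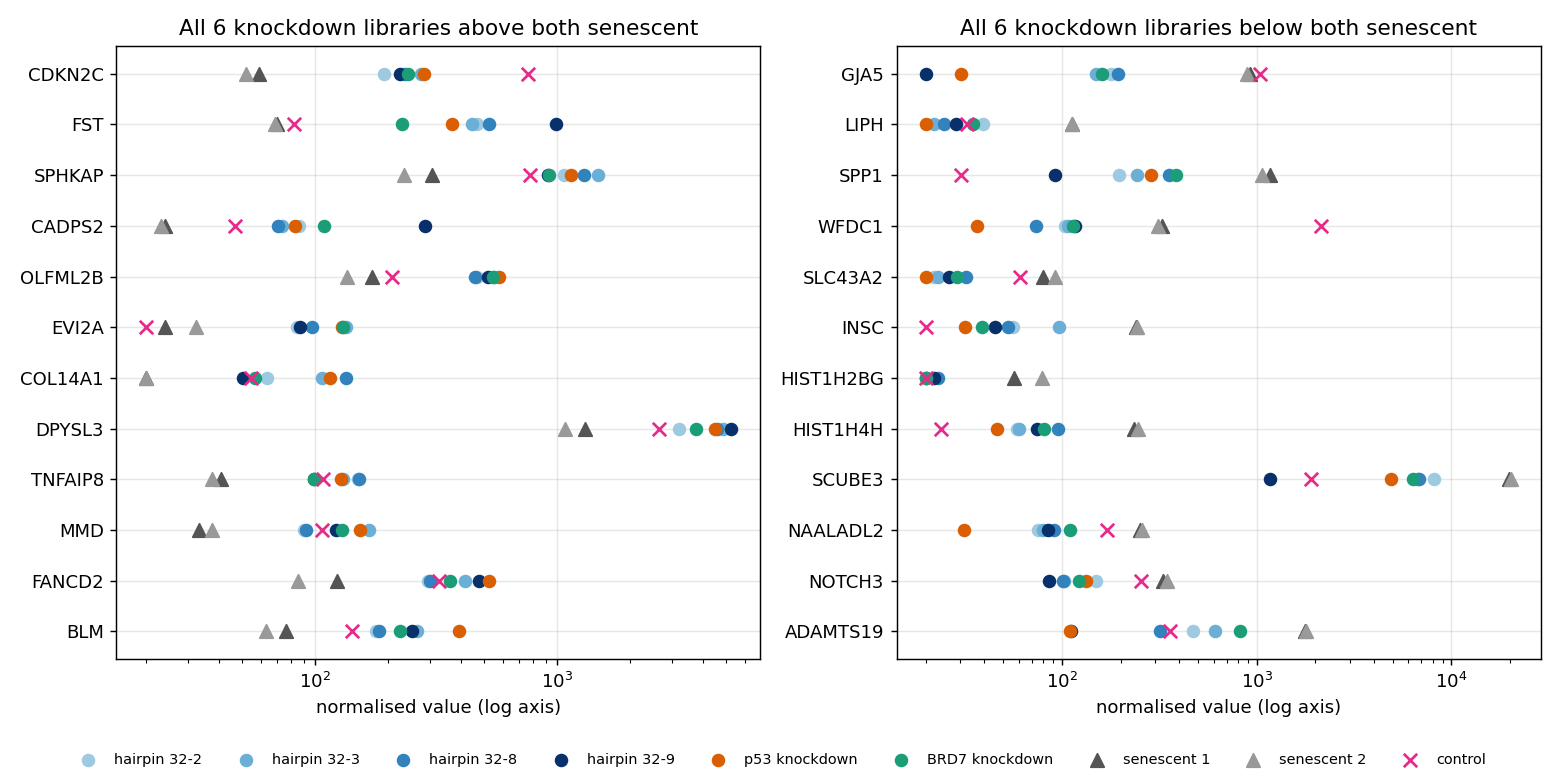
Values per library on a log axis for the 12 genes with a symbol that had the widest gap above (left) and below (right). Circles are the 6 knockdown libraries, triangles the 2 senescent libraries and crosses the control. In each row the circles lie wholly on one side of the triangles, and the control lies beyond them in 4 of the 24 genes, among them in 8, between them and the triangles in 9, and level with or past the triangles in 3 (EVI2A, GJA5 and WFDC1).

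Among genes below that have a symbol, GJA5, the gap junction protein connexin 40, had the widest gap. It had 178.4, 149.1, 195.1 and 20 with hairpins 32-2, 32-3, 32-8 and 32-9, 30.3 with p53 knockdown and 160.0 with BRD7 knockdown, against 923.4 and 889.2 in senescent libraries and 1040.2 in the control. Hairpin 32-9 and the p53 knockdown were at or near the floor, and the other 4 lay close together. GJA5 missed the threshold (log2 change -3.34, limma adjusted p = 0.0785), and it passed with a pseudocount of 50 (limma adjusted p = 0.0394). SPP1, the secreted phosphoprotein osteopontin, had 197.3, 242.3, 352.9 and 92.3 with the hairpins in that order, 285.8 with p53 knockdown and 385.6 with BRD7 knockdown, against 1166.8 and 1066.3 in senescent libraries and 30.2 in the control. SPP1 fell by 2.24 (SE 0.50, limma adjusted p = 0.0447), a call that was also lost without hairpin 32-2 or the p53 knockdown (limma adjusted p = 0.0659 and 0.0588). NOTCH3, a receptor of the Notch pathway, had 85.8, 112.35 and 150.1 as lowest, median and highest value in knockdown, against 329.7 and 347.8 in senescent and 255.4 in control libraries, and fell by 1.57 (SE 0.22, limma adjusted p = 0.0264). SCUBE3, a secreted EGF-domain protein, was the most abundant of the 12, at 1170.3 to 8152.6 in knockdown, 19757.9 and 20271.3 in senescent and 1892.4 in control libraries (log2 change -2.03, limma adjusted p = 0.115), and it passed without hairpin 32-9, its lowest library (limma adjusted p = 0.0167). ADAMTS19, a metalloprotease, was below at 110.0 to 818.4 in knockdown, 1771.9 and 1786.9 in senescent and 360.7 in control libraries (log2 change -2.51, limma adjusted p = 0.107).

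Of the remaining 7 in that group, 6 fell and NAALADL2, a glutamate carboxypeptidase-like protein, missed narrowly (log2 change -1.79, limma adjusted p = 0.0522), passing without the p53 knockdown (0.0275) or with median-of-ratios scaling (0.0496). INSC, an adaptor of spindle orientation, had 31.6 to 97.1 in knockdown, 239.2 and 242.6 in senescent libraries and 20 in the control, and fell by 2.26 (SE 0.38, limma adjusted p = 0.033). LIPH, a membrane-bound lipase, had 20 to 39.1 in knockdown, 113.2 and 112.3 in senescent libraries and 32.4 in the control, and fell by 2.04 (SE 0.27, limma adjusted p = 0.0241). WFDC1, a secreted protease inhibitor-like protein, had 36.8 to 116.6 in knockdown, 326.7 and 309.7 in senescent libraries and 2148.8 in the control, and fell by 1.89 (SE 0.43, limma adjusted p = 0.0473), a call that was also lost without hairpin 32-2 or 32-8 (limma adjusted p = 0.0634 and 0.0667). The control stood on opposite sides of the senescent pair in INSC and WFDC1. SLC43A2, an amino acid transporter, fell by 1.77 (SE 0.20, limma adjusted p = 0.0185). The histone genes HIST1H2BG and HIST1H4H, whose main transcripts lack a polyA tail, fell by 1.69 (SE 0.15, limma adjusted p = 0.0148) and 1.83 (SE 0.27, limma adjusted p = 0.0286). HIST1H4H had 46.2 to 95.8 in knockdown, 233.1 and 245.8 in senescent libraries and 24.0 in the control. Histone genes of one type are near-identical in sequence, so their counts may be shared between copies. Because the p53 knockdown of LIPH and SLC43A2 and 4 of the 6 libraries of HIST1H2BG were at the floor, the fitted sizes of these 3 changes depend on the floor. Without the second senescent library none of the calls in the last 2 paragraphs held, and without the first only that of HIST1H2BG did. Without hairpin 32-3, INSC and HIST1H2BG were still called, and without the BRD7 knockdown LIPH, SLC43A2 and HIST1H2BG.

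Genes with a symbol, a difference of at least 2-fold and both means at least 200 were ranked by SD of log2 over the 6 knockdown libraries. The 5 above with the smallest SD were AIM1, CHST2, TCF4, ADAMTS6 and TIMELESS. AIM1, a crystallin-domain protein, had 1133.6, 1405.3, 1403.8 and 1344.9 with hairpins 32-2, 32-3, 32-8 and 32-9, 1087.8 with p53 knockdown and 1282.0 with BRD7 knockdown, against 541.1 and 475.0 in senescent libraries and 340.1 in the control. CHST2, a sulfotransferase, had 658.0, 883.0 and 1042.0 as lowest, median and highest value in knockdown, against 382.8 and 407.6 in senescent and 81.1 in control libraries. TCF4, a basic helix-loop-helix factor, had 2042.9, 2302.3 and 3109.4 in knockdown, against 1215.3 and 1171.0 in senescent and 3274.8 in control libraries. AIM1 rose by 1.32 (SE 0.13, limma adjusted p = 0.0148), CHST2 by 1.14 (limma adjusted p = 0.0286), TCF4 by 1.01 (limma adjusted p = 0.0318) and ADAMTS6, a metalloprotease, by 1.30 (limma adjusted p = 0.0241). These 5 had an SD of 0.16 to 0.24 and the 5 below one of 0.20 to 0.25, against a median SD of 0.24 over genes above, 0.20 over genes below and 0.25 over all genes tested. All 10 were chosen by that SD and by the size of the change. Their SDs and adjusted p values are therefore not independent of the choice. Of the 5 below, TNFRSF10D, a decoy receptor for TRAIL, had 2588.7, 2313.7, 3031.4 and 2938.8 with the hairpins in order, 2042.1 with p53 knockdown and 2986.6 with BRD7 knockdown, against 5251.1 and 5544.7 in senescent libraries and 413.8 in the control. TNFRSF10D fell by 1.04 (SE 0.16, limma adjusted p = 0.0287), GYPC, a membrane skeleton glycoprotein, by 1.10 (limma adjusted p = 0.0286), BLCAP by 1.09 (limma adjusted p = 0.0301) and the non-coding RNA LINC00973 by 1.29 (limma adjusted p = 0.0241). The remaining one, MTCO1P12, is a nuclear copy of a mitochondrial gene and shares its reads, so its fall of 1.08 (limma adjusted p = 0.0346) is uncertain. Of these 10, only AIM1 was called without hairpin 32-3 and only AIM1, CHST2 and LINC00973 without the BRD7 knockdown, and none without either senescent library.

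Matrix and contractile genes were mixed. Of 35 fibrillar matrix genes tested, 6 were above (17.1%, against 14.7% of all genes tested) and 2 below (5.7%, against 18.6%). By limma 2 were called higher, and the median log2 change was 0.33. COL14A1, a collagen of fibril surfaces, had 50.6 to 134.0 in knockdown, with both senescent libraries at the floor and the control at 54.2, so the fitted size of its rise (limma adjusted p = 0.039) depends on the floor. DCN, decorin, a proteoglycan that binds collagen, had 136.1, 168.55 and 281.3 as lowest, median and highest value in knockdown, against 71.7 and 68.2 in senescent and 11040.1 in control libraries. DCN rose by 1.41 (SE 0.31, limma adjusted p = 0.044), and the control stood far above all 8 other libraries. LOX, which crosslinks collagen, was below at 1066.1 to 2938.8 in knockdown, 4884.7 and 4936.0 in senescent and 7949.9 in control libraries (log2 change -1.43, limma adjusted p = 0.0627). LOX passed with a minimum mean of 80 (limma adjusted p = 0.0487) or with equal target weights. Of 18 contractile and TGF-beta response genes, 3 were below (16.7%, against 18.6% of all genes tested) and none above. Their median log2 change was -0.32. TPM2, a tropomyosin, had 11653.3, 13115.8 and 14952.6 in knockdown, against 18967.2 and 18103.0 in senescent and 24882.0 in control libraries, and fell by 0.49 (SE 0.11, limma adjusted p = 0.0437). Of the 14 mesenchymal markers, 4 were above (28.6%) and 3 below (21.4%), with DCN the only call and a median log2 change of 0.55. No call of these lists held without hairpin 32-3, the BRD7 knockdown or either senescent library. COL14A1 lost its call also without the p53 knockdown (limma adjusted p = 0.0503), and DCN and TPM2 without hairpin 32-8 (0.0509 and 0.0564). TIE1, the endothelial marker, was above in all 6 (limma adjusted p = 0.336), highest with p53 knockdown, and the part of other cells in these results was not tested.

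Of 24 genes of cholesterol synthesis and uptake, 10 were above (41.7%, against 14.7% of all genes tested) and none below. Limma called 2 higher, and the median log2 change was 0.30. INSIG1, which holds back the sterol-sensing SREBP pathway and is its target, had 2531.7, 1715.9, 2492.2 and 2461.8 with hairpins 32-2, 32-3, 32-8 and 32-9, 1358.2 with p53 knockdown and 1749.7 with BRD7 knockdown, against 712.3 and 727.2 in senescent libraries and 1877.2 in the control. INSIG1 rose by 1.47 (SE 0.25, limma adjusted p = 0.0341). Of 36 lysosomal genes, 16 were below (44.4%, against 18.6% of all genes tested) and 1 above (2.8%, against 14.7%). Limma called 1 in each direction, and the median log2 change was -0.34. GLA, the alpha-galactosidase A of lysosomes, had 376.2, 460.1 and 526.1 as lowest, median and highest value in knockdown, against 850.2 and 862.3 in senescent and 207.7 in control libraries, and fell by 0.93 (SE 0.15, limma adjusted p = 0.0328). GUSB, beta-glucuronidase, went against the list, at 224.3, 287.6 and 365.1 in knockdown, 162.0 and 151.4 in senescent and 450.3 in control libraries, and rose by 0.88 (SE 0.18, limma adjusted p = 0.0395). GLB1, the beta-galactosidase used to stain senescent cells, was below in all 6, at 848.9 to 1094.2 in knockdown, 1172.6 and 1281.2 in senescent and 1389.8 in control libraries (limma adjusted p = 0.125). HK2, a hexokinase, was the only one of 22 glycolytic genes called, and fell by 0.76 (SE 0.13, limma adjusted p = 0.0348), while PFKP, LDHA and PFKFB3 were above without passing, though PFKP passed without hairpin 32-9 (limma adjusted p = 0.0466) or with a minimum mean of 80 (0.0459), and the median log2 change of the list was 0.06. Against 14.7% above and 18.6% below over all genes tested, the unfolded protein response had 7 of 24 above (29.2%) and 1 below (4.2%). The ATF4 amino acid response had 3 of 24 above (12.5%) and 1 below (4.2%), and neither list had a call by limma. At an unadjusted p under 0.05 these lists had 7 and 2 genes, and their median log2 changes were 0.12 and 0.10. Without the p53 knockdown the unfolded protein response had 1 call, and without hairpin 32-2 the ATF4 list had 1. GUSB lost its call also without hairpin 32-2 or the p53 knockdown (limma adjusted p = 0.0501 and 0.0533). No call of the metabolic lists held without hairpin 32-3, the BRD7 knockdown or either senescent library.

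At the edge of the one-sided rule the choice turned on very small differences. POLR2D, an RNA polymerase II subunit, was just inside, its lowest knockdown value being 516.4 and its higher senescent value 516.2. VWA8 was just inside on the lower side, with 624.3 as its highest knockdown and 624.4 as its lower senescent value. VIM, vimentin, was just outside because hairpin 32-8 and the first senescent library shared the value 55498.9. PREX2 was outside because all 8 RASG12V libraries were at the floor, with 1949.0 in the control.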

How the data were processed

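RNA from 9 BJ fibroblast libraries was measured by polyA RNA-seq. The deposited table holds a normalised signal per gene and library, made by the authors from read counts. The submitters' processing notes name TopHat2 and HTSeq, with hg19 as build, and no source used here gives a version or annotation. Equal column distributions and a floor of 20 were read from the values, so depth is unknown and differences in total RNA are removed. Of 1051 missing or date-like symbols, 564 were filled from a gene-name table.

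The members, gene lists, motifs and rules were chosen with earlier results of these data known. Genes whose highest value over 9 libraries was at least 40 were tested on log2 values, with no pseudocount, in R 4.3.3 with limma 3.58.1. The model had 2 groups, 8 libraries, 6 residual degrees of freedom and a variance trend. Tests were two-sided, and calls needed a Benjamini-Hochberg adjusted p under 0.05. Errors are standard errors of the log2 change, and log2 changes are knockdown minus senescent. Named genes were a short fixed set, the 12 widest gaps per direction, up to 3 one-sided members per list and direction, the 5 with the smallest spread per direction, and those at the edge of the rule. Only genes with a symbol were eligible. Others were named after their values were seen. Results for some genes are not reported here. On simulated data with 200 of 12481 genes changed, 68%, 94% and 99% of 2-fold, 4-fold and 8-fold changes were recovered. The changed genes had a mean log2 value over 8, with normal noise and the same shift in every knockdown library. The floor and differences between targets or hairpins were not simulated, so these rates may not hold for the real libraries. Alternatives were median-of-ratios scaling, pseudocounts of 10 and 50, no filter, a minimum mean of 80, each library left out, equal weight for the 3 targets, no variance trend, a replicate block, a gap of at least 0.5, and, chosen after seeing the data, lncRNA-OIS1 hairpins alone and the p53 and BRD7 knockdowns alone. Without one senescent library, the other was assumed to vary like the knockdown libraries.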

Additional observations from a re-analysis of the deposited data

Results flagged for a closer look

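Of 109 named genes examined, 7 had 1 knockdown library far from the other 5, by a gap that, divided by the range of the 6, exceeded Dixon's 95% critical value. Chance gives such a gap in about 1 in 20 groups. BRD7, at 94.6 in the BRD7 knockdown, was low in the library in which it was targeted, against 628.7 or more in the other 5. JUNB stood at 1329.6 with hairpin 32-2, against 875.0 or less in the other 5 knockdown libraries. INSC stood at 97.1 with hairpin 32-3, against 55.8 or less in the other 5. HMGB1 stood at 7037.1 with p53 knockdown, against 4888.2 or less. With hairpin 32-9, CADPS2 stood at 283.9, against 109.2 or less, CEBPB, a transcription factor of the secretory phenotype, at 473.6, against 314.3 or less, and SAMD9 at 1214.6, against 747.1 or less. In INSC the single high library was the nearest to the senescent pair. In JUNB, HMGB1, CADPS2, CEBPB and SAMD9 it was the farthest from it.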

How the results depend on the processing

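The number of calls depended on which libraries entered. Leaving out 1 library at a time gave 0 to 503 genes called higher and 0 to 595 called lower, against 378 and 344, with 0 and 0 without the second senescent library, 1 and 2 without the first, 4 and 3 without hairpin 32-3, 19 and 11 without the BRD7 knockdown, and 503 and 595 without hairpin 32-9. A fit to the lncRNA-OIS1 hairpins alone called 0 genes in either direction (2799 at an unadjusted p under 0.05), and so did the p53 and BRD7 knockdowns alone (3685). Label numbers 1 and 2 are shared by senescent and lncRNA-OIS1 libraries, and deviations of same-numbered libraries correlated at -0.07 and -0.10. The 2 senescent deviations mirror each other and the hairpins differ, so these values cannot decide whether the numbers pair the libraries. With the replicate block the counts were 0 and 0 (2762 unadjusted). Scaling, pseudocounts, filters, equal target weights and no variance trend gave 296 to 440 higher and 290 to 410 lower. Median-of-ratios scaling gave 411 and 313, against 378 and 344. With equal target weights, LMNB1, CCND3, CCNE1, JUNB, IER3, SAMD9, SPP1, DCN, COL14A1, GUSB and HK2 lost their calls, as did CDKN1B and CENPT. CDKN1A, C12orf5, LOX, NAALADL2 and BRD7 were called under those weights and not in the main fit. In that fit the p53 and BRD7 targets had 1 library each.

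All 6 libraries lay above in 1830 genes and below in 2318. Median-of-ratios scaling gave 2323 above and 2227 below, so which direction held more genes depended on the scaling. The counts that follow are without that scaling. With 1 value per target these counts were 3196 and 3754, with the p53 and BRD7 knockdowns alone 3769 and 4229, and with a gap of at least 0.5 they were 321 and 170. Leaving out 1 library can only add genes and gave 1918 to 2424 above and 2383 to 2991 below. Of the changes in named genes under the alternatives, 432 lost a call, 25 gained one, and none that was called reversed. The other 1535 stayed called or stayed uncalled, and this count includes genes not called in the main fit. The median log2 changes of the 20 lists moved beyond the spread between libraries in 2 cases and stayed within it in 356, and the leukocyte and endothelial lists had no member left at a minimum mean of 80. Unknown depth limits what can be said of genes near the floor.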

Other observations

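The gene families given here were picked by symbol after their values were seen, and their counts stand beside the 14.7% above and 18.6% below of all genes tested. They overlap the lists of the report in 4 of 20 centromere protein genes, 2 of 12 SMC and condensin genes and 2 of 15 vacuolar ATPase genes, which are counted in both places. Of 11 histone genes, 8 were below and none above, and 5 were called lower by limma, with a median log2 change of -1.46. HIST1H2BK had 434.4, 392.9, 578.9 and 577.4 with hairpins 32-2, 32-3, 32-8 and 32-9, 261.7 with p53 knockdown and 389.9 with BRD7 knockdown, against 1132.4 and 1296.3 in senescent libraries and 315.7 in the control, and fell by 1.51 (SE 0.29, limma adjusted p = 0.0369). Of 12 SMC and condensin genes, which fold and pair chromosomes, 10 were above and 8 were called higher. SMC4 had 2296.2 to 5881.3 in knockdown, 1083.3 and 841.9 in senescent libraries and 2594.4 in the control, and rose by 1.82 (SE 0.32, limma adjusted p = 0.0348). Of 20 centromere protein genes 14 were above, and CENPT was the single one below.

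Of 27 genes of the mitochondrial genome, 23 were below and none above, with 11 called lower by limma and a median log2 change of -0.70. MT-ND3, a complex I subunit, had 8921.1 to 9913.6 in knockdown, 13799.4 and 16309.8 in senescent libraries and 6561.0 in the control, and fell by 0.70 (SE 0.09, limma adjusted p = 0.0241). Nuclear genes of complex I were below in 23 of 44, of cytochrome c oxidase in 11 of 21 and of the vacuolar ATPase in 11 of 15, with medians of -0.25, -0.24 and -0.53. Of 82 cytosolic ribosomal protein genes, 50 were below, 21 were called lower and 80 had a log2 change under 0, with a median of -0.28. RPL23A had 1240.6 to 1352.2 in knockdown, 1853.0 and 2110.2 in senescent libraries and 1144.3 in the control, and fell by 0.61 (SE 0.07, limma adjusted p = 0.022). The single one above was RPL39L, a paralogue of RPL39, above at 133.1 to 311.6 in knockdown against 85.8 and 64.0 in senescent libraries (limma adjusted p = 0.0589). The medians of these families kept their sign under scaling, pseudocounts and without hairpin 32-9. Without hairpin 32-3, 4 genes were called higher and 3 lower over all genes, so at most 3 of these lower calls were kept there. HIST1H2BK, SMC4, MT-ND3 and RPL23A lost their calls without hairpin 32-3, the BRD7 knockdown or either senescent library (limma adjusted p = 0.0512 to 0.398). Ribosomal protein and mitochondrial genes have near-identical copies, so their counts are uncertain, and with equal distributions a value follows from its gene's place in the library. Most one-sided genes, 1637 above and 2270 below, were in none of the 20 lists.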
